A study of Mus musculus with 32 samples.

Results

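The caveola and cavin genes examined here were Cav1, Cav2, Cavin1, Cavin2, Cavin3, Ehd2, Pacsin2 and Pacsin3, 8 of the 20560 genes of the deposited expression table. They were chosen by gene symbol from a list of structural parts of the caveola, and all 8 were found in the table and passed the filter on low values in each comparison. RNA had been sequenced in 32 libraries of 3T3-L1, an established mouse preadipocyte line that turns into fat-storing cells under hormones. Each of days 0, 3, 7 and 11 had 4 libraries carrying a scramble control hairpin and 4 carrying a hairpin against Zbtb9, a zinc finger and BTB domain protein, 2 from shRNA 1 and 2 from shRNA 2. All groups went through the same course: induction at day 0, 2 days after confluence, with 1 µM dexamethasone, 0.5 mM isobutylmethylxanthine and 167 nM insulin, then 167 nM insulin alone from day 3, then plain culture medium from day 7. The labels name the libraries of a group biological replicates and do not say how the hairpins were delivered. All libraries come from 1 cell line, and whether a sample was taken before or after that day's change of medium is not stated.

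Caveolae are small flask-shaped pits of the plasma membrane that are very abundant in fat cells. Caveolins (Cav1, Cav2) are inserted in the membrane and form its scaffold, cavins (Cavin1, Cavin2, Cavin3) form a second coat around it from the cytoplasm, the ATPase Ehd2 sits at the neck and holds the pit at the surface, and the F-BAR proteins Pacsin2 and Pacsin3 bend membrane. Cav1 and Cavin1 are both needed for caveolae outside striated muscle, and their loss causes lipodystrophy in mice and people.

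Cav2 (chromosome 6, 17281185 to 17289115, plus strand) and Cav1 (chromosome 6, 17306335 to 17341452, plus strand) are neighbours with a gap of 17.2 kb between the genes in GENCODE M21 on GRCm38. Cavin2 lies on chromosome 1, 51289126 to 51302960, plus strand. The 250 bases in front of the start of these genes are shown because Cav1 and Cav2 rose together in the control cells while Cavin2 made the largest move of the 8 genes, in the opposite direction. They are RefSeq sequences of GRCm38.p6, 5′ to 3′ on the gene's strand, with matches to the motifs searched in capitals.
Cav1 (chr6:17306085-17306334): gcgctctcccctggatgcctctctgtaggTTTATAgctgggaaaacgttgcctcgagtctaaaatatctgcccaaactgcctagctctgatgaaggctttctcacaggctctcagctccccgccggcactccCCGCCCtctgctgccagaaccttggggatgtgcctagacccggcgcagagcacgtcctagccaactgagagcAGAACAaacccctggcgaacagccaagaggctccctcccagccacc
Cav2 (chr6:17280935-17281184): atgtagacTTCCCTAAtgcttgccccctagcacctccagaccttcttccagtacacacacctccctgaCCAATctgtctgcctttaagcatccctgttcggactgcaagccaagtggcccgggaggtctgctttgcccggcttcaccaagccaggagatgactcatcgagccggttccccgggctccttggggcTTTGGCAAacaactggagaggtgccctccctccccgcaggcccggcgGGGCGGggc
Cavin2 (chr1:51288876-51289125): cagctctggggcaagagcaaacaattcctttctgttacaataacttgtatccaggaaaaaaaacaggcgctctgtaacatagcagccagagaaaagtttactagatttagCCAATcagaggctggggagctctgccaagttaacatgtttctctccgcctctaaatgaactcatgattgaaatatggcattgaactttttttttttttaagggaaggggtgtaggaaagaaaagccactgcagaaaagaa

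The motifs, searched on both strands, were the GC box GGGCGG, the CCAAT box CCAAT, the TATA box TATAAA, the glucocorticoid receptor motif TGTTCT, the C/EBP core TTNCNNAA and the nuclear receptor motif AGGTCA. None of these overlaps another in the 3 windows. Cav1 held a GC box, a TATA box match and a glucocorticoid receptor motif, the last of these 46 to 41 bases before the start. Cav2 held a GC box, a CCAAT box and 2 C/EBP cores. The Cavin2 window, with a GC content of 40.4% against 59.6% for Cav1 and 62% for Cav2, held a CCAAT box and no GC box. RefSeq windows were found for 7 of the 8 genes, and Cavin1, Ehd2, Pacsin2 and Pacsin3 each held a GC box and a CCAAT box. Of 32851 RefSeq windows of this length, 32.7% held the GC box, 33.8% the CCAAT box, 12.4% the TATA box, 16.1% the glucocorticoid receptor motif, 36.8% the C/EBP core and 14.0% the nuclear receptor motif. A match describes the letters in these windows and is not a binding site.

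The deposited table is in log2 units, and whole reads could be rebuilt from it, from 22280356 to 31073722 reads in genes per library. Levels below are normalised reads (rebuilt reads scaled by a factor per library), and differences are of the deposited log2 values, tested with limma and called at an adjusted p under 0.05. Folds are 2 to the power of that difference unless they are named as ratios of mean reads. Zbtb9 itself averaged 10.3 to 16.8 normalised reads in the control groups and 5.20 to 8.76 in the knockdown groups, in means over 4 libraries. Its fall was called on day 7 (log2 difference -0.35, adjusted p = 0.0288) but not on day 0 (-0.21, adjusted p = 0.271) or day 11 (-0.28, adjusted p = 0.173), while on day 3 it was under the filter. Its knockdown and control libraries did not overlap on day 0 (4.62 to 10.6 against 13.5 to 14.9) and day 7 (4.87 to 9.28 against 12.7 to 22.3) and overlapped on day 3 (0 to 8.99 against 6.35 to 12.6). On day 11 the library labelled shRNA 1 replicate 2 held 19.3 reads of Zbtb9, more than 3 of the 4 controls (12.1, 12.1 and 17.9), and the other 3 knockdown libraries held 2.13, 4.25 and 8.17. That library goes against its label by this measure, a gene of few reads, so the day 11 knockdown tests are also given without it. The group means over arms and days keep it. Its adipocyte marker sum, by contrast, lay in the knockdown range of day 11 given next (114134 to 141213), above all controls (55068 to 65074). Why its Zbtb9 level was high was not tested. The 10 adipocyte markers, all in the table, summed to 25466 to 30648 normalised reads in control libraries and 42099 to 55799 in knockdown libraries on day 3, to 47995 to 52117 and 131115 to 202338 on day 7, and to 55068 to 65074 and 114134 to 141213 on day 11. On day 0 the sums were 19717 to 20316 and 21954 to 23542. Lpl alone held at least 15513 normalised reads in each of the 32 libraries. Adipoq, Plin1, Cfd and Retn had 3 reads or fewer in 8 of the 32 libraries, Cidec in 7 and Lep in 28. Between knockdown and control, Fabp4 (-0.12, adjusted p = 0.595) and Pparg (-0.04, adjusted p = 0.705) were not called on day 0. The 8 fibroblast markers were lower in knockdown than in control libraries on day 0 (582686 to 689560 against 710247 to 751712) and day 7 (413506 to 465306 against 503436 to 550758), and overlapped on day 3 (245474 to 333164 against 279494 to 309449) and day 11 (521704 to 666539 against 644059 to 733494). Endothelial markers, which matter because endothelium is also rich in caveolae, summed to 9.88 to 101 over 7 genes. Kdr and Tie1 had 3 reads or fewer in 31 of 32 libraries, Cdh5 in 25, Emcn in 23, Tek in 17, Vwf in 5 and Pecam1 in 0. The endothelial sum was lower in knockdown libraries on day 0 (45.1 to 52.9 against 64.0 to 82.0) and day 11 (47.8 to 75.6 against 82.7 to 101). The 5 muscle markers in the table of 7 summed to 101 to 748, and were higher in knockdown than in control libraries on day 7 (605 to 748 against 357 to 456) and day 11 (531 to 666 against 325 to 379). Des had the highest median of these (211 normalised reads), and Ckm had 3 reads or fewer in 31 libraries. The 5 macrophage markers in the table of 6 summed to 24.3 to 648, and were higher in knockdown libraries on day 11 (313 to 648 against 209 to 308). Ptprc had 3 reads or fewer in all 32 libraries, Itgam in 31, Lyz2 in 2, Csf1r in 1 and Cd68 in 0. Cd68 reached 575 normalised reads.

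In control cells the caveola genes did not move as a block when adipogenesis was induced. From day 0 to day 3 the caveolins, Ehd2 and Pacsin2 rose and the 3 cavins and Pacsin3 fell, and from day 3 to day 7 both sets turned round. By day 11 each of the 8 genes stood below its day 7 level. All 8 were called from day 0 to day 3, where 76.6% of the 13421 genes tested were called (38.3% higher and 38.2% lower), all 8 from day 3 to day 7 (74.2%, with 37.6% higher and 36.6% lower) and all 8, each lower, from day 7 to day 11 (55.0%, with 28.9% higher and 26.1% lower). Against day 0, 7 members were higher and 1 lower on day 7 (69.1% of all genes called, 33.3% higher and 35.8% lower), and 2 were higher and 4 lower on day 11 (64.6%, with 33.0% higher and 31.6% lower). A call in either direction thus by itself sets these genes apart little from the rest. The shared direction from day 7 to day 11, with all 8 lower, stands beside 26.1% of all genes called lower. In these bulk samples fewer cells of a type and less RNA per cell cannot be told apart. The median log2 difference of the members from day 7 to day 11 was -0.48, against 0.01 over all genes tested.

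**Figure D1:**
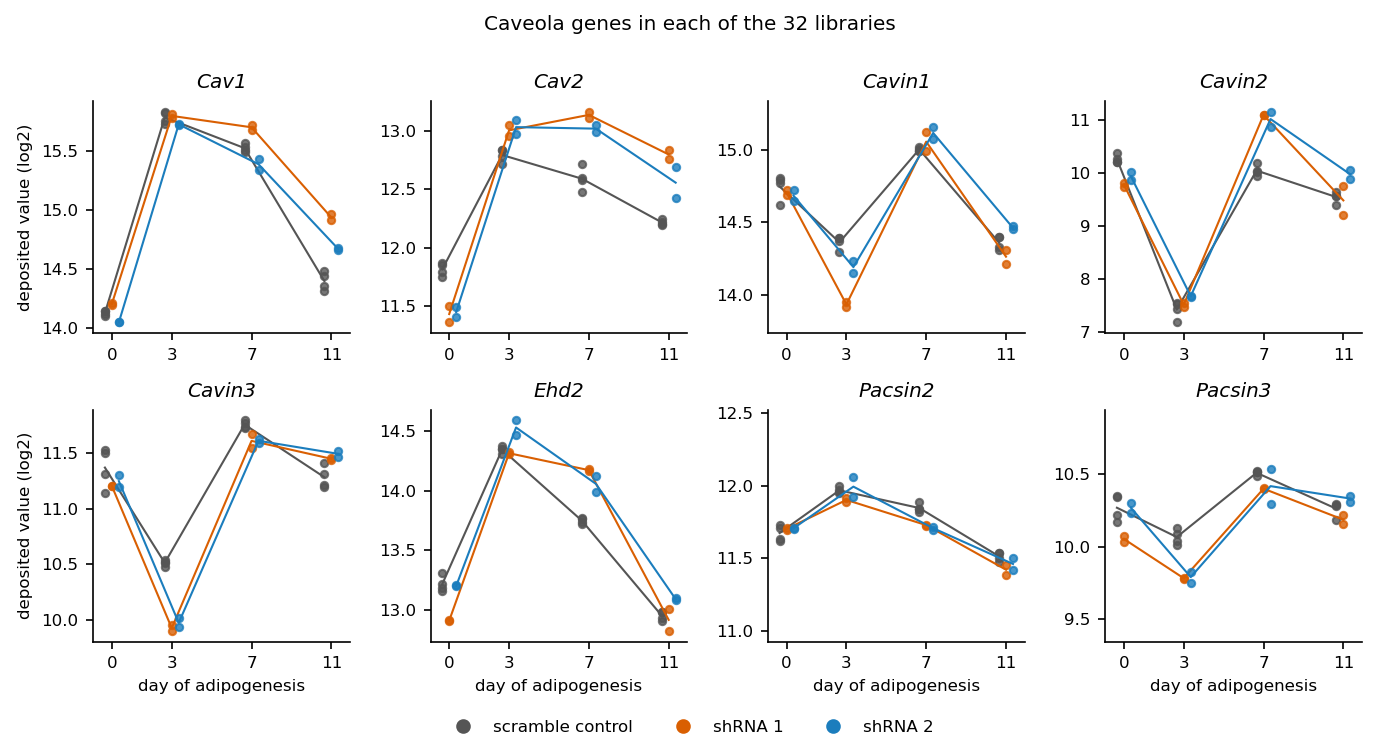
Deposited log2 value of each caveola gene (vertical axis, own range in each panel) against the day of adipogenesis, with 1 point per library and lines through group means for the scramble control (4 libraries a day) and each hairpin (2 libraries a day). Cav1, Cav2, Ehd2 and Pacsin2 peak on day 3 in the control, whereas the cavins and Pacsin3 dip on day 3 and, except for Cavin2, are highest on day 7.

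Cav1, the main scaffold protein, was at 17466, 17783, 17276 and 17778 normalised reads in the 4 control libraries of day 0 and at 54995, 55964, 58861 and 59272 on day 3. It was at 48902, 46492, 47853 and 46967 on day 7 and at 20037, 22034, 20693 and 22642 on day 11. No 2 days overlapped. Cav1 thus rose 3.15-fold to day 3 (log2 difference 1.65, SE 0.04, adjusted p = 1.86e-29), and lost most of that gain between day 7 and day 11, when it fell 2.18-fold (-1.12, SE 0.04, adjusted p = 1.24e-23).

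Cav2, which needs Cav1 to reach the cell surface, followed the same course with a smaller swing. Its control libraries held 3502, 3682, 3395 and 3639 normalised reads on day 0 and 6779, 7123, 7347 and 7357 on day 3, a 1.97-fold rise (log2 difference 0.98, SE 0.04, adjusted p = 1.55e-21). On day 7 they held 6753, 6121, 5710 and 6196 and on day 11 4701, 4745, 4846 and 4657, which was still 1.32-fold above day 0 (0.40, adjusted p = 9.28e-11). The day 3 and day 7 libraries did not overlap, and the step between those days was 1.15-fold (-0.20, adjusted p = 2.99e-05).

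Cavin1, the cavin without which the coat does not form, was at 28416, 28068, 28763 and 25238 normalised reads on day 0 and at 21428, 19947, 21088 and 21376 on day 3. It then rose to 32804, 32832, 33583 and 33239 on day 7, above every day 0 library, and returned to 20182, 21555, 20499 and 21470 on day 11. The fall to day 3 was 1.31-fold (log2 difference -0.39, SE 0.04, adjusted p = 2.19e-11) and the rise from day 3 to day 7 was 1.56-fold (0.64, adjusted p = 4.98e-17).

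Cavin2, which helps to shape and extend the pits, made the widest move of the 8 genes. It was at 1267, 1225, 1209 and 1371 normalised reads on day 0 and at 149, 122, 163 and 165 on day 3, a fall of the mean from 1268 to 150, or 8.47-fold as a ratio of mean reads. On the deposited log2 scale, which draws such low values towards the gene's mean, the difference was -2.84 (SE 0.07, adjusted p = 2.41e-27). By day 7 it was back at 1202, 1061, 1005 and 1069, a 7.24-fold rise as a ratio of mean reads (log2 difference 2.62, adjusted p = 6.60e-26), and on day 11 it was at 765, 765, 808 and 670. The day 7 libraries lay under those of day 0 without overlap, but the called difference of -0.22 (adjusted p = 0.00827) was not called in 1 fit of all 32 libraries (adjusted p = 0.0923).

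Cavin3 also dipped on day 3 and came back by day 7, from 2977, 2252, 2916 and 2540 normalised reads on day 0 to 1432, 1446, 1399 and 1466 on day 3 and 3424, 3527, 3451 and 3603 on day 7. It fell 1.80-fold to day 3 (log2 difference -0.85, adjusted p = 1.87e-11) and rose 2.35-fold from there to day 7 (1.23, adjusted p = 2.37e-14). That took it above its day 0 level (0.38, adjusted p = 1.01e-05), where Cavin2 stayed below its own. The day 11 libraries (2338 to 2738) overlapped those of day 0, and that difference was not called (-0.09, adjusted p = 0.237), except without control replicate 2 of day 0 (-0.16, adjusted p = 0.00635). Of the 1662 exon bases of Cavin3, 374 (22.5%) also lie in an exon of Gm45667 on the opposite strand, and since the use of strand in counting is not given in the sources used here, reads of the overlapping stretch cannot be told apart.

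Ehd2, the ATPase of the caveolar neck, ran with the caveolins. Its control libraries held 9066 to 10090 normalised reads on day 0, 20599 to 21621 on day 3, 13569 to 14015 on day 7 and 7571 to 8002 on day 11. It rose 2.19-fold to day 3 (log2 difference 1.13, SE 0.03, adjusted p = 2.38e-25) and ended 1.20-fold below day 0 (-0.26, adjusted p = 3.16e-08), with no overlap between any of the 4 days. The membrane-bending proteins swung least. Pacsin2 went from 3142 to 3405 normalised reads on day 0 to 3991 to 4120 on day 3 (1.23-fold, adjusted p = 2.67e-09), and the small step down from day 3 to day 7 (-0.12, adjusted p = 0.00226) was not called with libraries rescaled to equal totals (-0.07, adjusted p = 0.0741). Pacsin3, better known from muscle, went with the cavins, from 1153 to 1311 on day 0 to 1026 to 1118 on day 3 (a 1.15-fold fall, adjusted p = 0.00025) and 1451 to 1490 on day 7. Rescaling the libraries to equal totals moved the median difference of all genes from day 0 to day 3 by -0.13 and changed no direction of these 8 genes in the control course.

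Levels between genes were compared as normalised reads per kb of exon. In day 0 control libraries the order was Cavin1 (7700 ± 450, SD, n = 4), Cav1 (5103 ± 72.3), Ehd2 (1846 ± 88.2), Cavin3 (1607 ± 204), Cav2 (1066 ± 39.4), Pacsin2 (666 ± 26.7), Cavin2 (415 ± 23.9) and Pacsin3 (286 ± 18.5). Ehd2 and Cavin3 overlapped between libraries. On day 3 Cav1 led at 16630 ± 614, Cavin1 came next at 5843 ± 193, and Cavin2 was last at 49.0 ± 6.54. On day 7 Cavin2 (355 ± 27.4) and Pacsin3 (341 ± 3.94) overlapped. On day 11 Cav1 (6200 ± 347) and Cavin1 (5834 ± 192) overlapped, and Cavin3 (1505 ± 110) overlapped with both Ehd2 (1528 ± 41.6) and Cav2 (1420 ± 24.3), which did not overlap with each other.

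The opposite courses changed the make-up of the caveola transcripts several-fold within the control cells. The ratio of Cav1 to Cavin1, both per kb, averaged 0.665 (0.626 to 0.734 over 4 libraries) on day 0, 2.85 (2.67 to 2.92) on day 3, 1.50 (1.47 to 1.55) on day 7 and 1.06 (1.03 to 1.10) on day 11. The ratio of Cavin1 to Cavin2 averaged 18.6 (15.7 to 20.3), 121 (110 to 140), 26.1 (23.2 to 28.5) and 23.8 (21.6 to 27.3) on the same days. Ehd2 to Cavin1 went from 0.240 on day 0 to 0.708 on day 3 and back to 0.262 on day 11. These ratios are given as descriptions, and they concern RNA, not the protein coat.

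**Figure D2:**
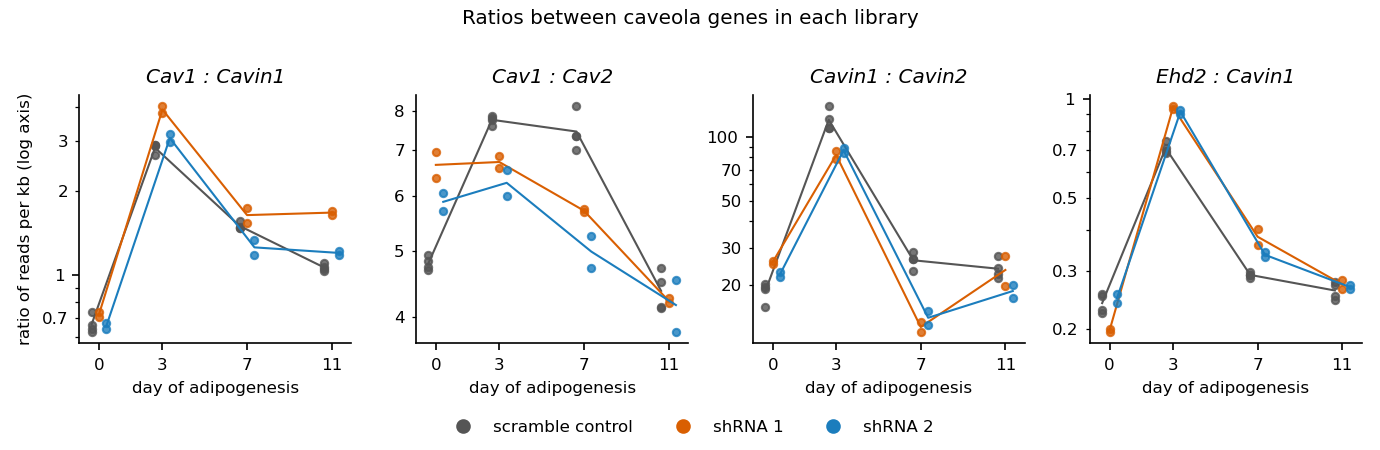
Ratios of normalised reads per kb between pairs of caveola genes in each library (log axis) by day of adipogenesis, with lines through group means. The Cav1 to Cavin1 ratio of the control averages 0.665 on day 0 and 2.85 on day 3, and on day 11 the 4 knockdown libraries (1.18 to 1.70) lie above the 4 controls (1.03 to 1.10), as do the 3 left without the library labelled shRNA 1 replicate 2 (1.18 to 1.64).

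Over the 12 group means (3 arms by 4 days, which share their libraries and the time course), the log2 values of the 8 genes fell into the same 2 sets, given here as descriptions. Cav1 ran with Cav2 (Pearson r 0.90) and Ehd2 (0.88), and Ehd2 with Pacsin2 (0.84). Cavin2 ran with Cavin3 (0.91), Cavin1 (0.84) and Pacsin3 (0.85), and Cavin3 with Pacsin3 (0.94). Cav1 and Cavin1, the indispensable pair, had an r of -0.12. Among 10821 genes, those most like Cav1 included Klf9 (r 0.99), Gtf2h3 (0.98), Errfi1 (0.98) and Slc25a17 (0.98). The 5 most like Cavin1 were Ptk2b (0.97), Fbxw8 (0.95), Dusp19 (0.95), Nucb2 (0.95) and Ptms (0.95), and the 5 most like Ehd2 were Sar1a (0.99), Snd1 (0.98), Tgfbr2 (0.98), Slc35a4 (0.97) and Sh3pxd2a (0.97). No member of the 8 was among these nearest genes.

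Zbtb9 knockdown shifted the caveola genes unevenly, with Cav2 the 1 gene called on each of the 4 days. Cav2 was lower in knockdown cells on day 0 and higher on days 3, 7 and 11. Cavin2 was lower on day 0 and 2.01-fold higher on day 7, Ehd2 was higher on day 7, Cav1 was higher on day 11, and Cavin1, Cavin3 and Pacsin3 were lower on day 3. Called members numbered 2 of 8 on day 0 (both lower), 4 on day 3 (1 higher and 3 lower), 5 on day 7 (3 higher and 2 lower) and 3 on day 11 (3 higher). The share of all genes called was 3.25% on day 0 (0.817% higher, 2.44% lower), 26.7% on day 3 (14.6% higher, 12.1% lower), 47.6% on day 7 (24.9% higher, 22.6% lower) and 33.0% on day 11 (16.8% higher, 16.2% lower). The share on day 0 is the least settled of these: its 430 genes became 111 to 157 without any 1 control and 250 without shRNA 1 replicate 2, and 3340 with the hairpins fitted as separate groups. From day 3 on, then, the members were called at about 1 to 2 times the rate of all genes. The median difference of the members was -0.13, -0.02, 0.05 and 0.12 on days 0, 3, 7 and 11, against -0.01, 0.00, 0.01 and -0.01 over all genes tested. Beside these differences stand those of the adipocyte genes Fabp4, a fatty acid carrier (0.90, 1.66 and 1.65 on days 3, 7 and 11), and Pparg, the master regulator of adipogenesis (0.37, 1.17 and 1.15), all called, and the adipocyte, fibroblast, endothelial, muscle and macrophage marker sums given above. Their part in the caveola differences was not tested.

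**Figure D3:**
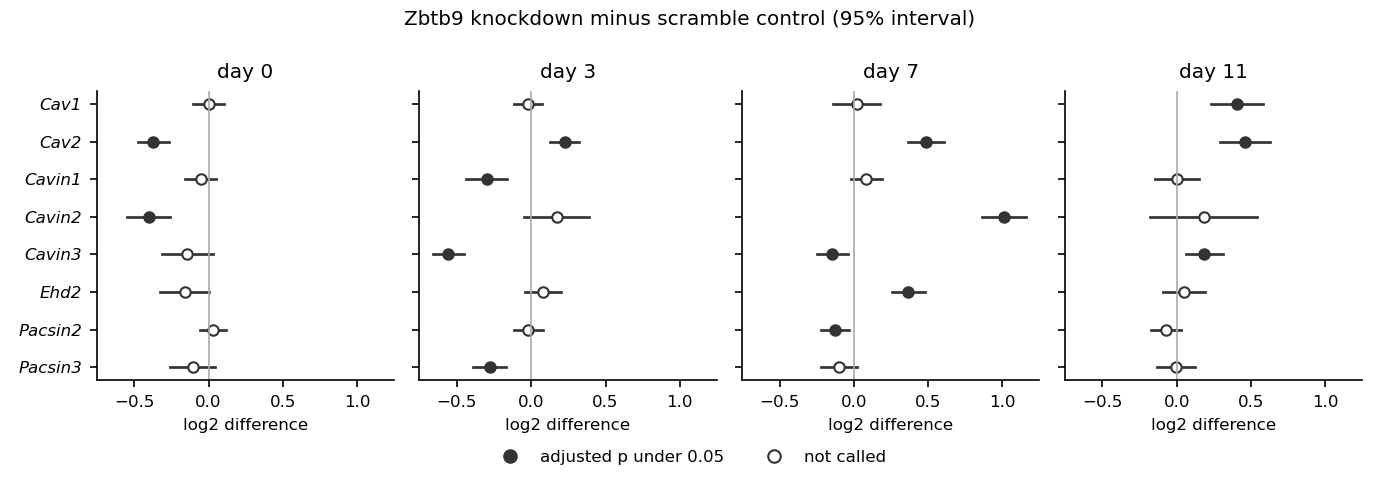
Log2 difference of Zbtb9 knockdown (4 libraries) minus scramble control (4 libraries) for each caveola gene on each day, with its limma 95% interval; filled points have an adjusted p under 0.05. Cav2 is filled on each day, from -0.37 on day 0 to 0.49 on day 7, and the largest difference is that of Cavin2 on day 7 at 1.01.

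Cav2 held 2844 and 2565 normalised reads in the shRNA 1 libraries of day 0 and 2825 and 2647 in those of shRNA 2, each below the lowest control (3395), a 1.29-fold reduction (log2 difference -0.37, SE 0.05, adjusted p = 0.00286). On day 3 the order was the opposite, with 8604 and 8023 for shRNA 1 and 8856 and 8107 for shRNA 2, each above the highest control (7357; 0.22, adjusted p = 0.00232). On day 7 the values were 8945 and 9319 for shRNA 1 and 8228 and 8566 for shRNA 2, 1.40-fold over control (0.49, SE 0.06, adjusted p = 5.12e-06). Day 11 gave 7368 and 6979 for shRNA 1 and 6631 and 5495 for shRNA 2, 1.37-fold over control (0.46, SE 0.08, adjusted p = 0.000902). The knockdown mean was 8398 normalised reads on day 3 and 8764 on day 7, where the control mean was 7151 and 6195.

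Cav1 behaved differently from its neighbour gene. On day 0 the shRNA 1 libraries (18708 and 18449 normalised reads) stood above and the shRNA 2 libraries (16636 and 16607) below all 4 controls, and the 95% interval of the pooled difference was -0.11 to 0.10. On day 3 the knockdown libraries held 58548, 56948, 54932 and 54813, within reach of the controls (-0.02, interval -0.12 to 0.07). On day 7 they split again, with 53085 and 54736 for shRNA 1 and 44541 and 41782 for shRNA 2 on either side of the controls (0.02, interval -0.14 to 0.18). On day 11 the values were 31860 and 30731 for shRNA 1 and 26065 and 25662 for shRNA 2, each above the highest control of 22642, a 1.32-fold difference (0.40, SE 0.08, adjusted p = 0.00263). Without the library labelled shRNA 1 replicate 2, which held as much Zbtb9 as the controls, the day 11 calls of Cav1 (0.37, adjusted p = 0.00339), Cav2 (0.43, adjusted p = 0.00145) and Cavin3 (0.20, adjusted p = 0.0254) were still made, and Cavin2 was called as well. The other 4 members were not called without it: Cavin1 at 0.05 (adjusted p = 0.536), Ehd2 at 0.11 (0.107), Pacsin2 at -0.05 (0.418) and Pacsin3 at 0.03 (0.706). The median of the 8 members was then 0.15, against -0.02 over all genes.

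Cavin2 showed the largest response of the 8 genes. On day 0 the knockdown libraries held 864 and 917 normalised reads for shRNA 1 and 1056 and 946 for shRNA 2, each below the lowest control of 1209 (log2 difference -0.40, SE 0.07, adjusted p = 0.00975). On day 7 they held 2313 and 2328 for shRNA 1 and 1979 and 2431 for shRNA 2, against 1005 to 1202 in control, a 2.01-fold increase (1.01, SE 0.07, adjusted p = 1.75e-08). These day 7 levels exceeded those of the day 0 controls as well. On day 3 the gene was near its low point in both arms (156 to 183 against 122 to 165), and the difference of 0.17 was not called (interval -0.05 to 0.39). On day 11 the libraries of shRNA 1 lay far apart at 872 and 588, and those of shRNA 2 were at 1093 and 965. The day 11 difference of 0.18 was not called (adjusted p = 0.419) but was called without the library labelled shRNA 1 replicate 2, the 588 (0.35, adjusted p = 0.00672).

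Cavin1 differed on day 3, at 15216 and 15640 normalised reads for shRNA 1 and 17989 and 19117 for shRNA 2, each below the lowest control of 19947 (1.23-fold, log2 difference -0.30, SE 0.06, adjusted p = 0.00379). Its intervals on the other days were -0.16 to 0.05 on day 0, -0.02 to 0.19 on day 7 and -0.15 to 0.15 on day 11. Cavin3 was lower on day 3 too, at 957, 922, 1001 and 944 in the 4 knockdown libraries against 1399 to 1466 in control, a 1.47-fold reduction (-0.56, SE 0.05, adjusted p = 3.43e-06) and the largest fall among the members on that day. Small differences followed in Cavin3, lower on day 7 (-0.15, adjusted p = 0.0207) and higher on day 11 (0.19, adjusted p = 0.0252). The call on day 7 was lost without shRNA 1 replicate 2 (adjusted p = 0.0617), control replicate 2 (0.05) or control replicate 4 (0.0641), and that on day 11 without control replicate 1 (0.083) or 3 (0.0852).

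Ehd2 was higher on day 7, at 18561 and 18848 normalised reads for shRNA 1 and 16426 and 18081 for shRNA 2 against 13569 to 14015 in control (1.29-fold, log2 difference 0.37, SE 0.05, adjusted p = 2.78e-05). On day 0 its difference of -0.16 was not called (adjusted p = 0.266), but was called when the hairpins were fitted as separate groups and averaged (adjusted p = 0.000142), as was that of day 3 (0.08, adjusted p = 0.0429 against 0.345). On day 3 the hairpins had opposite signs for Ehd2 (-0.03 for shRNA 1 and 0.19 for shRNA 2). Pacsin2 held 3405, 3387, 3369 and 3320 in knockdown libraries of day 7, each below the lowest control of 3624, a small difference (-0.13, adjusted p = 0.0277) that was not called without shRNA 2 replicate 2 (adjusted p = 0.0504) or without control replicate 2 (0.0532), 3 (0.0739) or 4 (0.0528). Pacsin3 was lower on day 3, at 870, 864, 848 and 897 against 1026 to 1118 (1.21-fold, -0.28, SE 0.05, adjusted p = 0.00131). Its day 7 difference of -0.10 (adjusted p = 0.166) was called without shRNA 2 replicate 2 (-0.14, adjusted p = 0.0469).

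The groups did not overlap for the same members that were called: 2 on day 0 (13.9% of all genes did not overlap), 4 on day 3 (28.3%), 5 on day 7 (44.2%) and 3 on day 11 (34.3%). Whether the knockdown effect differed between days was tested in 1 fit of all 32 libraries, in which every later day is set against the same day 0. The effect on day 3 differed from that on day 0 for 3 members (6.57% of all genes), namely Cav2 (0.60, adjusted p = 2.45e-05), Cavin2 (0.58, adjusted p = 0.0223) and Cavin3 (-0.42, adjusted p = 0.00133). The Cavin2 difference missed the threshold in a voom fit of the rebuilt reads (adjusted p = 0.137), and without control replicate 4 of day 0 (0.0532) or 2 of day 3 (0.0613). On day 7 it differed for 4 members (29.9%), Cav2 (0.86, adjusted p = 2.33e-09), Cavin2 (1.41, adjusted p = 2.74e-08), Ehd2 (0.53, adjusted p = 5.46e-05) and Pacsin2 (-0.16, adjusted p = 0.0249). On day 11 it differed for 4 members (23.2%), Cav1 (0.40, adjusted p = 0.002), Cav2 (0.83, adjusted p = 6.35e-09), Cavin2 (0.59, adjusted p = 0.00625) and Cavin3 (0.33, adjusted p = 0.00314), and without the library labelled shRNA 1 replicate 2 of day 11 for Ehd2 too (0.27, adjusted p = 0.0274). The turn of Cav2 and Cavin2 from lower on day 0 to higher on day 7 was therefore larger than the spread between libraries. The Pacsin2 call was lost without a filter on low values (adjusted p = 0.0502), and without control replicates 1 or 3 of day 0 (0.0612 and 0.056) or 3 of day 7 (0.0534).

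In ratio terms, Cav1 to Cav2 per kb averaged 4.79 in control and 6.28 in knockdown libraries on day 0, 7.46 and 5.35 on day 7, and 4.37 and 4.19 on day 11. Cavin1 to Cavin2 averaged 24.1 in knockdown libraries on day 0, 84.3 on day 3, 13.3 on day 7 and 21.1 on day 11. On day 7 its knockdown libraries (none above 15.0) lay below the controls (23.2 to 28.5). Without the library labelled shRNA 1 replicate 2 the day 11 averages were 4.17 for Cav1 to Cav2 and 19.0 for Cavin1 to Cavin2.

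The hairpins had the same direction for Cav2 on each day and for most larger differences, and parted on Cav1 on days 0 and 7. For shRNA 1 and shRNA 2 they also had opposite signs for Ehd2 on day 3 (-0.03 and 0.19, the latter called) and day 11 (-0.04 and 0.14). So did Cavin1 on day 11 (-0.10 and 0.10), Cav1 and Pacsin2 on day 3, and Cavin2 and Pacsin3 on day 11. Each hairpin was set against the same 4 controls of its day, so the 2 sets of differences share those libraries. On day 7, where 52.0% of all genes were called for shRNA 1 and 46.0% for shRNA 2, Cav2 differed by 0.54 and 0.43, Cavin2 by 1.05 and 0.97, and Ehd2 by 0.42 and 0.31, all called. Cav1 on day 7 was called in opposite directions, 0.18 for shRNA 1 (adjusted p = 0.00361) and -0.14 for shRNA 2 (adjusted p = 0.0238). On day 0 it differed by 0.08 for shRNA 1 (adjusted p = 0.0401) and by -0.08 for shRNA 2, which was not called (adjusted p = 0.0654). On day 3 (39.4% and 31.4% of all genes called) Cavin3 differed by -0.58 and -0.54 and Pacsin3 by -0.28 and -0.28. On day 0 (34.7% and 17.6%) Cav2 differed by -0.38 and -0.36 and Cavin2 by -0.48 and -0.32. Ehd2 differed by -0.31 (adjusted p = 8.02e-08) for shRNA 1 and -0.01 for shRNA 2 on that day. On day 11 (43.6% and 36.9%) Cav1 differed by 0.54 and 0.27 and Cav2 by 0.58 and 0.34, again all called. Cavin2 on day 11 differed by -0.06 for shRNA 1 (adjusted p = 0.725) and by 0.43 for shRNA 2 (adjusted p = 0.0197). The negative value rests on the library labelled shRNA 1 replicate 2. Without it the single shRNA 1 library, assumed to vary like the other groups, differed by 0.20 for Cavin2 (adjusted p = 0.139). Cav1 (0.56) and Cav2 (0.62) were still called there, as were 31.3% of all genes. In the same fit Ehd2 became called for shRNA 2 (0.14, adjusted p = 0.0312 against 0.0681 with all libraries; 39.1% of all genes).

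**Figure D4:**
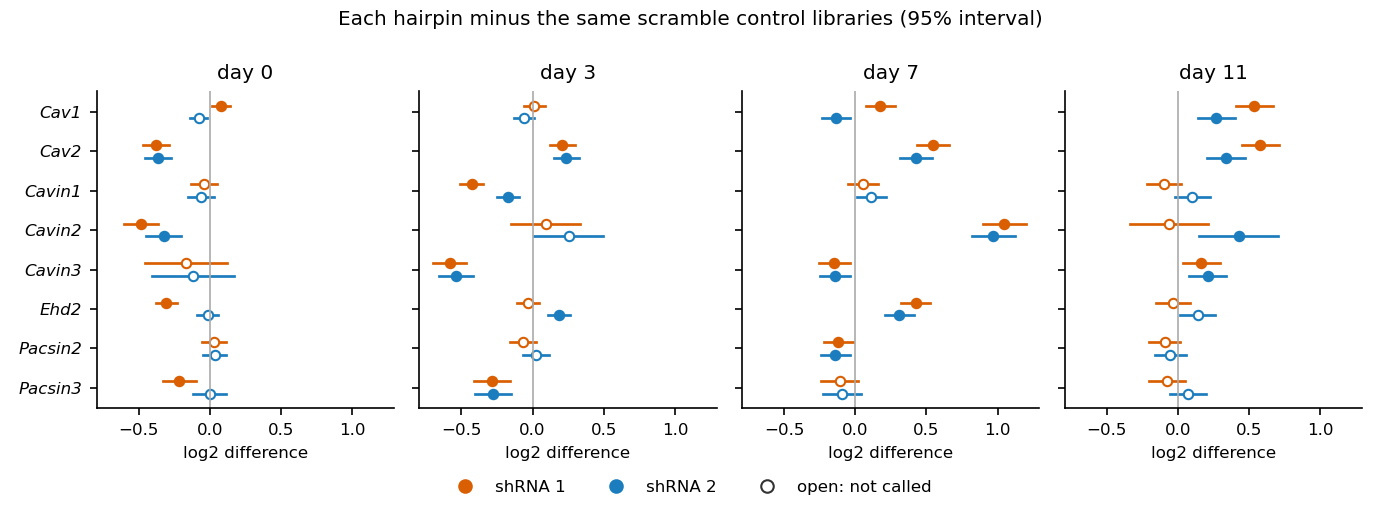
Log2 difference of shRNA 1 (2 libraries, orange) and of shRNA 2 (2 libraries, blue) from the same 4 scramble controls for each caveola gene and day, with limma 95% intervals; filled points have an adjusted p under 0.05. The hairpins lie on opposite sides of 0 for Cav1 on day 0 (0.08 and -0.08) and day 7 (0.18 and -0.14), and close together for Cavin2 on day 7 (1.05 and 0.97).

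Set directly against each other, the hairpins differed for 3 members on day 0 (35.0% of all genes), Cav1 (-0.16 for shRNA 2 minus shRNA 1), Ehd2 (0.29) and Pacsin3 (0.22). They differed for 2 on day 3 (19.6%), Cavin1 (0.26) and Ehd2 (0.22), for Cav1 on day 7 (16.4%; -0.31, adjusted p = 0.000306), and for 4 on day 11 (22.0%), Cav1 (-0.27), Cav2 (-0.24), Cavin1 (0.20) and Cavin2 (0.49). Cav1 was thus lower with shRNA 2 on days 0, 7 and 11, and the day 3 difference in the same direction was not called (-0.07, adjusted p = 0.25). The 4 calls of day 11 were reduced to none without shRNA 2 replicate 2, to 1 without shRNA 2 replicate 1, to 2 without shRNA 1 replicate 2 or control replicate 2, and to 3 without control replicate 1, 3 or 4. Of these 4 calls, that of Cavin1 was made in only 1 of the 8 fits with a library left out, the one without shRNA 1 replicate 1 (adjusted p 0.0509 to 0.225 in the others). The Cav2 difference shrank to -0.11 without shRNA 2 replicate 2 (adjusted p = 0.325) and was not called without shRNA 1 replicate 1 (-0.20, adjusted p = 0.0971). The library labelled shRNA 1 replicate 2 is the one with control-like Zbtb9, and without it the Cavin2 difference was 0.22 (adjusted p = 0.219). The Pacsin3 call of day 0 was lost without replicate 1 of shRNA 1 (adjusted p = 0.0778) or of shRNA 2 (0.103).

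Other genes of caveolae and of the other main endocytic coat were taken from lists of relatives and partners (16 genes, 14 tested), of receptors and transporters reported in caveolae (12 genes, 11 tested on days 0, 3 and 7 and 12 on day 11) and of the clathrin coat (14 genes, 13 tested). The shares of all genes called, to read the counts against, were 3.25%, 26.7%, 47.6% and 33.0% on days 0, 3, 7 and 11. Among the relatives and partners 1 was called lower on day 0, 1 higher and 5 lower on day 3, 2 higher and 7 lower on day 7, and 1 higher and 4 lower on day 11, with medians of -0.01, -0.14, -0.16 and -0.14. Dnm1, a dynamin that severs membrane necks, was lower on day 3 (-0.55, adjusted p = 0.011), day 7 (-0.51, adjusted p = 9.48e-06) and day 11 (-0.52, adjusted p = 0.000816). Its call on day 0 (-0.34, adjusted p = 0.0336) was lost without any 1 of the controls or either shRNA 1 replicate (0.0573 to 0.122). Of the paralogs of Ehd2, Ehd4 was higher on day 3 (0.32, adjusted p = 0.000346) and day 7 (0.23, adjusted p = 0.0084), as Ehd2 was on day 7, and Ehd3 was lower on day 7 (-0.75, adjusted p = 3.65e-07) and day 11 (-0.56, adjusted p = 0.0185). Flot1, a flotillin of caveolin-free membrane domains, was lower on day 3 (-0.43, adjusted p = 7.97e-05), day 7 (-0.27, adjusted p = 0.000444) and day 11 (-0.69, adjusted p = 0.0019). Cavin4, the muscle cavin, was called higher on day 11 (0.53, adjusted p = 0.0254), but not without shRNA 1 replicate 1 or the library labelled shRNA 1 replicate 2, or control replicate 3 or 4 (0.053 to 0.0782). On day 7 Cavin4 differed by -0.18 (adjusted p = 0.41). The muscle marker sum was higher in knockdown cells on days 7 and 11, and its part in the Cavin4 differences was not tested.

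The receptors and transporters had 1 member called higher on day 0, 4 higher and 2 lower on day 3, 7 higher and 2 lower on day 7, and 6 higher and 1 lower on day 11, with medians of 0.03, 0.06, 0.54 and 0.45. Slc2a4, the insulin-responsive glucose transporter GLUT4, was higher on day 3 (0.79, adjusted p = 0.00121), day 7 (2.84, SE 0.07, adjusted p = 8.78e-13) and day 11 (2.70, adjusted p = 1.55e-07). Cd36, a fatty acid transporter, was higher on day 3 (1.32, adjusted p = 0.00321) and day 7 (0.80, adjusted p = 0.0222). Scarb1, a lipoprotein receptor, was higher on days 3, 7 and 11 (0.36, 0.72 and 0.94, all called), and its call on day 0 (0.37, adjusted p = 0.037) was lost without any 1 of the controls or either shRNA 1 replicate (0.0719 to 0.128). Igf1r was lower on day 3 (-0.28, adjusted p = 0.000411) and day 7 (-0.18, adjusted p = 0.0163). Pdgfrb, a receptor of fibroblasts and progenitors, was lower on days 7 (-0.46, adjusted p = 0.000301) and 11 (-0.46, adjusted p = 0.0293). The latter call was lost without shRNA 1 replicate 1 or any 1 control (0.0586 to 0.0726). In the clathrin list none was called on day 0, 1 higher and 1 lower on day 3, 1 higher and 3 lower on day 7, and 1 higher and 4 lower on day 11. Ap2a2, an adaptor subunit, was the gene called higher on each of these days (0.16, 0.37 and 0.20), and Dab2, a cargo adaptor, fell furthest on each (-0.22, -0.77 and -0.57). The Ap2a2 call of day 11 was lost without control replicate 1 (adjusted p = 0.0563), and the Dab2 call of day 3 in 1 fit of all 32 libraries (0.21). Over all alternative fits the adjusted p reached 0.149 for Ap2a2 on day 3, and 0.118 for Ap2a2 and 0.117 for Dab2 on day 11. It reached 0.12 for Dnm1 and 0.054 for Cd36 on day 3. These calls too were thus lost in at least 1 alternative. The medians of the clathrin list were 0.02, 0.02, -0.06 and -0.04 on the 4 days.

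Without the library labelled shRNA 1 replicate 2, 32.3% of all genes were called on day 11 (16.2% higher, 16.1% lower). Of the relatives and partners none was then called higher and 5 lower (median -0.14). Of the receptors and transporters 5 were higher and 1 lower (median 0.45), and of the clathrin list 1 higher and 4 lower (median -0.05). Dnm1 (-0.43), Ehd3 (-0.42), Flot1 (-0.59), Slc2a4 (2.78), Scarb1 (0.94), Pdgfrb (-0.31), Ap2a2 (0.17) and Dab2 (-0.47) were still called on that day. So were Fabp4 (1.66) and Pparg (1.20).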

How the data were processed

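RNA was sequenced in 32 libraries of 3T3-L1 cells (8 on each of 4 days). RNA extraction used an RNeasy kit and library preparation a TruSeq RNA kit, per the labels' protocols. Per the submitters' processing notes, the tools were TopHat2 2.1.0, Bowtie2 2.2.6, SAMtools 1.3.1 and HTSeq 0.6.1, with no roles given. Build, annotation, strand setting and the final transform are not given in the sources used here. The values the authors deposited, though named normalized counts, are on a log2 scale (-1.56 to 17.99) in the form of a regularized log, which draws rare genes towards their mean and so understates their differences.

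Whole reads were rebuilt by inverting that transform: 99.0% of values came within 0.1 of a whole read (20% would by chance) and 99.6% of those of the 8 genes. Normalised reads give levels, and exon lengths come from GENCODE M21. Counting error is small at these depths. No 2 replicates were alike within sampling noise (chi-square per degree of freedom 2.92 to 11.0 over 32 pairs). Groups came from sample titles.

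Tests used limma 3.58.1 (R 4.3.3, trend and robust empirical Bayes) on the deposited log2 values, over all genes with 2 to the power of the value at least 10 in at least 4 libraries, with Benjamini-Hochberg adjustment over all genes tested and calls at 0.05. Knockdown and hairpin tests were fitted per day, the control course on 16 control libraries, and differences between days on all 32. This fit and the rebuilding of reads were tested on simulated data, where false calls in the knockdown comparison exceeded the nominal share on days 3, 7 and 11. Alternatives were other filters, scalings, variance settings, voom on rebuilt reads, separate hairpins, a replicate block and leaving out each library. The 8 genes and all lists were chosen with earlier results of these data known. Genes named were the 8 members, Zbtb9, Fabp4, Pparg, the called gene of each other list with the largest rise and fall per day, and the 5 genes most like Cav1, Cavin1 and Ehd2 over group means, among genes with a mean of at least 50 that have a full name; 1 of those most like Cav1 is not reported here. P-values measure the spread between these replicates of 1 cell line.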

Additional observations from a re-analysis of the deposited data

Results flagged for a closer look

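In 1 of 32 control groups of 4 libraries (each member on each day; the hairpin groups, of 2 libraries, were not examined), 1 library stood far from the other 3: Pacsin3 in control replicate 3 of day 11, at 10.19 (log2) against 10.28 to 10.29. The rule took the gap between the outermost library and its neighbour as a share of the range of the group. Its cutoff is one that about 1 group in 20 would pass by chance if values were normally spread, which was not tested here.

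Differences between the hairpins were called in 10 of 32 tests, where 35.0%, 19.6%, 16.4% and 22.0% of all genes were called on days 0, 3, 7 and 11. As shRNA 2 minus shRNA 1 these were Cav1 (-0.16), Ehd2 (0.29) and Pacsin3 (0.22) on day 0, Cavin1 (0.26) and Ehd2 (0.22) on day 3, Cav1 (-0.31) on day 7, and Cav1 (-0.27), Cav2 (-0.24), Cavin1 (0.20) and Cavin2 (0.49) on day 11, the day whose calls most often failed when a library was left out. Cav1 appears on 3 of the 4 days, each time lower with shRNA 2.

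The knockdown effect differed from that of day 0 in 11 of 24 tests, where 6.57%, 29.9% and 23.2% of all genes were called on days 3, 7 and 11. On day 3 these were Cav2 (0.60), Cavin2 (0.58) and Cavin3 (-0.42). On day 7 they were Cav2 (0.86), Cavin2 (1.41), Ehd2 (0.53) and Pacsin2 (-0.16), and on day 11 Cav1 (0.40), Cav2 (0.83), Cavin2 (0.59) and Cavin3 (0.33). The 3 days share the day 0 libraries, so these are not separate observations of the day 0 difference.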

How the results depend on the processing

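Over all alternatives, the calls for Cav2 on days 0, 3, 7 and 11, Cavin2 on days 0 and 7, Cav1 on day 11, Ehd2 on day 7 and Cavin1, Cavin3 and Pacsin3 on day 3 held in each setting but the replicate block. The block ended 5 of these 11: Cav2 (adjusted p = 0.364) and Cavin2 (0.482) on day 0, Cavin1 (0.132) and Pacsin3 (0.0505) on day 3 and Cav1 (0.0623) on day 11, each in the same direction. Deviations of same-numbered libraries within a day correlated over 0.1 in 3 of 24 pairs (-0.01 to 0.21). All 3 were on day 11, whose other 3 were 0.0999, 0.0999 and 0.0038. Those of control libraries between days did so in 1 of 24. With 2 libraries per hairpin the deviations mirror each other, so the values between hairpins repeat for replicates 1 and 2. This check therefore cannot exclude that replicate numbers pair the libraries. With the replicate block, called members went from 2 to 0 on day 0, from 4 to 2 on day 3, from 5 to 3 on day 7 and from 3 to 1 on day 11, and called genes over the whole table from 430 to 0, 3506 to 845, 6328 to 4112 and 4382 to 1652. With the hairpins as separate groups the table had 3340 called genes on day 0 and 5311 on day 3, and 5 members instead of 3 differed between days 3 and 0. Without trend and robust variance 261 genes were called on day 0, and 1 member between hairpins on day 3 (of 2) and 1 on day 11 (of 4). Leaving out 1 library each gave 111 to 562 genes on day 0 (250 without shRNA 1 replicate 2 and 111 to 157 without any 1 of the controls), 3 to 5 members on day 7 (3 without control replicate 2 or 4) and 0 to 4 members between hairpins on day 11. Uncalled differences near 0 changed sign: Cav1 on day 0 (0.027 when rescaled to equal totals), day 3 (0.020 with the replicate block) and day 7 (-0.020 rescaled), and Cavin1 on day 11 (-0.023 rescaled). Leaving out libraries, they ran from -0.029 to 0.026 for Cav1 on day 0, -0.039 to 0.087 on day 7, -0.034 to 0.052 for Cavin1 and -0.034 to 0.033 for Pacsin3 on day 11, and -0.040 to 0.019 for Pacsin3 in the control from day 0 to 11. The causes were not tested. The lowest member value was 122 normalised reads (Cavin2, day 3), where the deposited scale understates differences.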
